A study of Cavia porcellus with 30 samples.

Results

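A set of 582 transcripts of guinea pig liver had higher group means late, at 33 h after thioacetamide, for both doses given, with group means at 9 h of the high dose near those of vehicle livers. They were 2.25% of the 25824 transcripts listed. Members were chosen on group means of TPM, a level that allows for transcript length and for the library's total, each ratio being treated plus 0.1 over vehicle of the same time plus 0.1. The ratio had to lie between 0.67 and 1.5 for the high dose at 9 h, and to reach 3 for the high dose and 2 for the low dose at 33 h. The high dose mean at 33 h had to reach 1 TPM, and the mean of the 10 vehicle libraries had to lie under 50 TPM.

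Hartley guinea pigs, an outbred laboratory breed, received 3 ml/kg saline as vehicle, a low dose of thioacetamide (25 mg/kg) or a high dose (100 mg/kg). With livers sampled at 9 h and at 33 h there were 6 groups, each of 5 animals with a library apiece. The labels give the same breed and tissue for every group, and no age, sex or route. Library totals ran from 21352824 to 33842322 estimated counts. The series was made to produce livers with different degrees of injury.

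Thioacetamide is not itself the harmful agent. Liver enzymes oxidise it to reactive products, and hepatocytes around the central vein, where those enzymes are abundant, are injured first. In the days after such an injury the liver is known to take in inflammatory cells, to activate its stellate cells and to start dividing again, so a whole-liver library then holds RNA from a changing mixture of cells. In such libraries a change in the number of cells of a type and a change in RNA per cell cannot be told apart. The tables give Ensembl transcript identifiers without gene names, and the reference table used here matched 0 of them, so no member is described by function. The liver label could not be checked against marker genes, nor could members be tied to a cell type.

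The members were mostly scarce transcripts of the vehicle liver. At 33 h their median level was 8.75 TPM in high dose livers and 1.70 TPM in vehicle livers, and 312 of the 582 stayed under 10 TPM even at the high dose. Another 250 lay between 10 and 100 TPM there, and 20 exceeded 100 TPM. Those 20 held 34.8% of the members' summed level at the high dose. At 33 h the members together made up 0.286 ± 0.0249% of TPM in vehicle livers, 0.836 ± 0.219% in low dose livers and 1.47 ± 0.198% in high dose livers (SD, n = 5 each). Their median length was 2153 bases, against 2537 bases over the 18239 transcripts tested.

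Since the rule used these animals, the sizes of the rises are given as a description. The ratio of high dose to vehicle at 33 h ran from 3.00 to 444 with a median of 4.16 and quartiles of 3.45 and 5.67. The ratio of low dose to vehicle ran from 2.0 to 32.4 with a median of 2.53 and quartiles of 2.20 and 3.11. The ratio of high dose to vehicle at 9 h had a median of 1.07. Many members lay near a bound. The nearest value inside and outside was 3.002 and 2.999 for the high dose ratio, and 2.0005 and 1.999 for the low dose ratio. Within 5% of the low dose bound there were 76 members inside and 55 transcripts outside that met the other conditions.

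Part of each ratio was shared by transcripts in general. TPM is a share of a library, and at 33 h the median ratio over all 18239 tested transcripts was 1.59 at the high dose and 1.32 at the low dose. On the log2 scale, by animal, the members' median stood above the median of all tested transcripts by 1.41 ± 0.109 at the high dose and by 0.884 ± 0.296 at the low dose, against -0.01 ± 0.0449 in vehicle livers (SD, n = 5 each). With TPM divided by TMM factors, which set the bulk of transcripts level between libraries, the rule found 159 transcripts in place of 582, and all 159 were members. The members' median ratio became 2.77 at the high dose and 2.03 at the low dose. With 1 TPM in place of 0.1 added to each mean, 260 transcripts met the rule, 218 of them members.

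**Figure D1:**
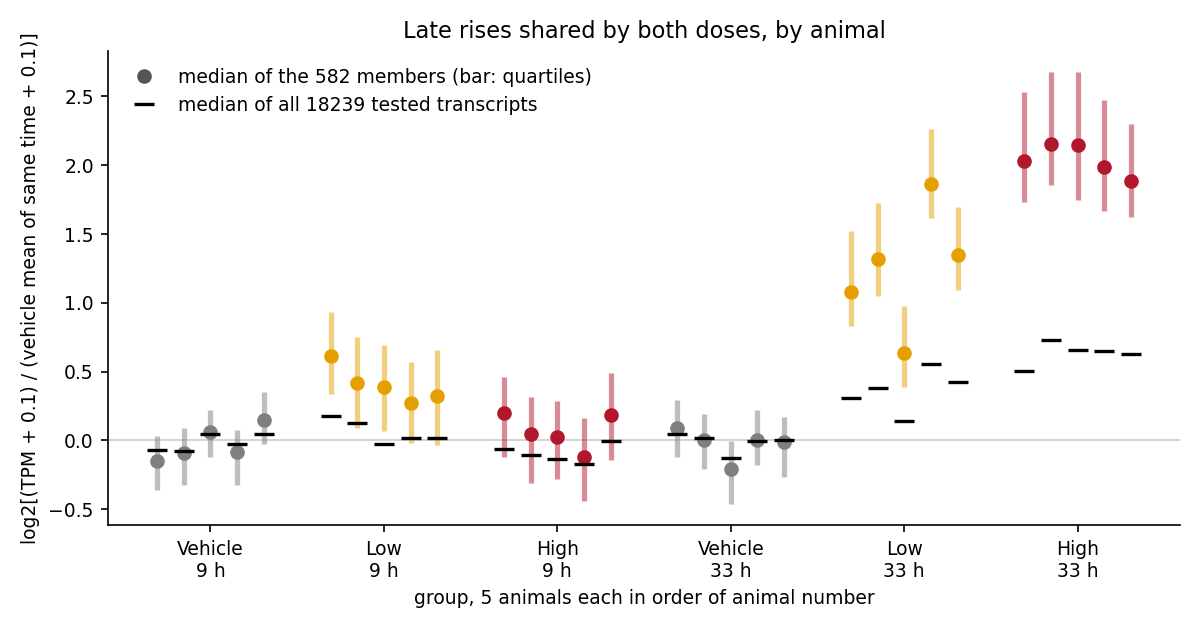
Log2 ratio of each animal's TPM to the vehicle mean of the same time (0.1 TPM added), by group; dots are medians over the 582 members, bars their quartiles and dashes the median of the 18239 tested transcripts. Low dose animal 4 at 33 h, at 1.87, lies just under the high dose animals, which span 1.89 to 2.15, while low dose animal 3 lies at 0.63.

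The 2 members named here were picked by a fixed rule, the first for having the highest high dose level and the second for the largest high dose ratio among the others with at least 5 TPM. ENSCPOT00000014732.3, of 792 bases, measured 2.03, 2.61, 4.23, 2.26 and 2.88 TPM in the 33 h vehicle livers (animals 1 to 5). It measured 21.8, 29.2, 9.14, 370 and 39.7 TPM at the low dose, 33 h, and 1641, 855, 2038, 1606 and 297 TPM at the high dose, 33 h. Every low dose liver lay above every vehicle liver, and all high dose livers but animal 5 lay above every low dose liver. Low dose animal 4, at 370 TPM, exceeded high dose animal 5. The group means were 2.80 ± 0.862 TPM with vehicle, 93.9 ± 155 TPM with the low dose and 1287 ± 699 TPM with the high dose (SD, n = 5 each). Without low dose animal 4 the low dose mean was 24.9 ± 12.8 TPM, and its ratio to vehicle 8.63 in place of 32.4.

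This transcript was uneven at 9 h as well. At that time the vehicle livers held 9.30, 2.39, 7.02, 7.89 and 33.1 TPM, the low dose livers 84.7, 9.01, 17.4, 25.3 and 10.6 TPM, and the high dose livers 15.5, 10.2, 31.8, 8.99 and 9.27 TPM. In each 9 h group 1 animal stood far above the other 4, and the groups overlapped. The low dose did not pass the test against vehicle at 9 h, with a log2 fold change of 1.21 ± 0.78 (SE, edgeR quasi-likelihood, adjusted p = 0.284). Single livers moved this value, to 0.37 without low dose animal 1 (adjusted p = 0.806) and to 2.0 without vehicle animal 5 (adjusted p = 0.0896). Its vehicle mean, the divisor of the ratios, was 2.80 ± 0.862 TPM for the later time but 11.9 ± 12.1 TPM for the earlier (SD, n = 5 each).

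ENSCPOT00000036568.1, of 1898 bases, was close to absent from vehicle livers, where the 33 h libraries held 3 estimated counts in all (0, 0, 0.0234, 0 and 0.0563 TPM). Its vehicle mean was 0.016 ± 0.0248 TPM at 33 h and 0.201 ± 0.294 TPM at 9 h, with 40 counts (SD, n = 5 each). At the low dose, 33 h, it measured 0, 0.314, 0, 6.62 and 0.212 TPM, so that 2 livers were at 0 and animal 4 carried the group. At the high dose, 33 h, it measured 15.1, 36.5, 33.0, 17.5 and 5.04 TPM, above every vehicle liver, and animal 5 alone lay below the low dose maximum. The counts, 3890 at the high dose and 3 in vehicle livers, gave a ratio of 1304 per library total with a 95% interval of 446 to 6324 (exact, counting error only). For the low dose the counts were 256 and 3, a ratio of 85.2 with an interval of 28.8 to 416. Animal 4 held 237 of those 256 counts, and neither interval covers the spread between animals. By the rule, with 0.1 TPM added to each mean, its low dose ratio was 13.2. Without low dose animal 4 that ratio was 1.996, just short of the bound of 2. At 9 h no group passed 0.693 TPM, and the low dose did not differ detectably from vehicle (log2 fold change -0.45 ± 1.34, SE, edgeR adjusted p = 0.860).

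**Figure D2:**
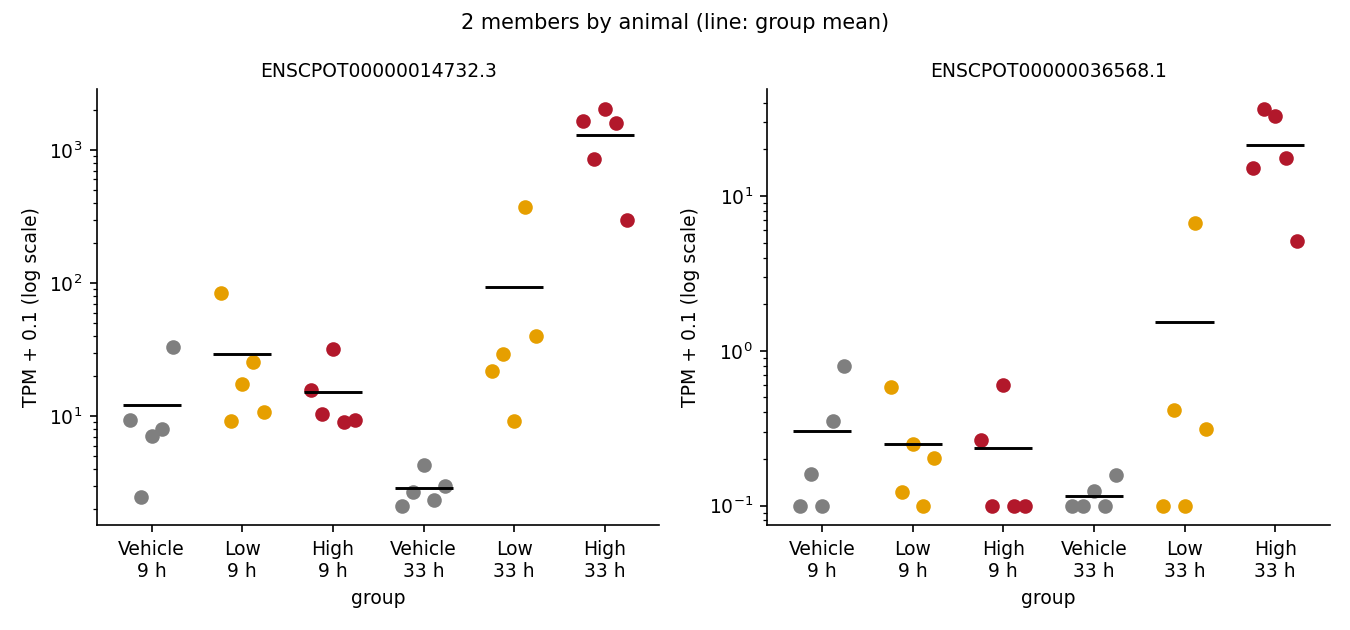
TPM plus 0.1 on a log axis for ENSCPOT00000014732.3 (left) and ENSCPOT00000036568.1 (right), 1 point per animal in order of animal number and a line at the group mean. In both, the fourth low dose animal at 33 h stands apart from the other 4, at 370 and 6.62 TPM.

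Other members show the range of patterns within the set. The member nearest the medians of level and of both 33 h ratios, of 3005 bases, measured 2.79, 0.893, 1.70, 2.94 and 1.58 TPM in vehicle livers at 33 h. It measured 5.74, 3.5, 1.37, 9.56 and 3.44 TPM at the low dose and 4.89, 6.92, 11.2, 8.93 and 12.6 TPM at the high dose. All 5 high dose livers lay above the vehicle livers, whereas low dose animal 3 lay inside the vehicle range. The member with the second highest level, of 774 bases, spread widely in every group. At 33 h it held 24, 12.9, 71.0, 54.0 and 36.9 TPM in vehicle livers, 45.0, 41.7, 229, 209 and 82.0 TPM at the low dose, and 276, 193, 650, 1138 and 272 TPM at the high dose. Low dose animals 1 and 2 lay inside the vehicle range, and animal 3 was the highest low dose liver. The third highest, of 2312 bases, held 54.1, 52.0, 19.5, 22.9 and 53 TPM in vehicle livers, 131, 179, 62.0, 265 and 134 TPM at the low dose and 438, 430, 185, 336 and 220 TPM at the high dose. Here the lowest treated liver, low dose animal 3, was still above the highest vehicle liver.

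Over the members tested, separation from vehicle was more complete at the high dose. Of 582 members 568 passed the count filter, and the 14 that did not were short (median 334.5 bases) and had at most 151 estimated counts over all libraries. At the high dose, 33 h, every treated liver lay above every vehicle liver for 530 of 568 members, where 45.3% of all tested transcripts did so. At the low dose, 33 h, this held for 389 of 568, where 24.5% of all tested transcripts did so. By edgeR's quasi-likelihood test at an adjusted p under 0.05, termed called from here on, 527 members were called higher at the high dose, 33 h (28.2% of all tested transcripts) and 432 at the low dose, 33 h (14.3%). None was called lower at the high dose (22.5% of all tested) or at the low dose (11.4%), 33 h. At the high dose, 9 h, 59 members (10.4%) were called higher (13.5% of all tested) and 9 (1.58%) lower (12.8%). Of the 12251 tested transcripts inside the same 9 h and vehicle bounds, defined below, 5.77% were called higher there and 8.73% lower. The rule used these 3 contrasts, so the counts describe the choice and support nothing.

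The low dose livers at 33 h ranged from slight to near the high dose response, and the same 2 animals marked the ends for most members. Low dose animal 4 was the highest of its group for 446 members (76.6%), and animal 3 was the lowest for 441. These counts were not made over all tested transcripts, whose median was also highest in animal 4 and lowest in animal 3. In animal 4, 569 of 582 members were at 2-fold or more over the vehicle mean, a number within the high dose range of 559 to 572. In animals 1, 2, 3 and 5 it was 328, 455, 137 and 491, and in vehicle animals 6 to 18. The median fold over the members was 3.64 in animal 4, 1.55 in animal 3 and 2.11 to 2.55 in the other low dose animals, against 3.70 to 4.44 across the high dose animals.

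**Figure D3:**
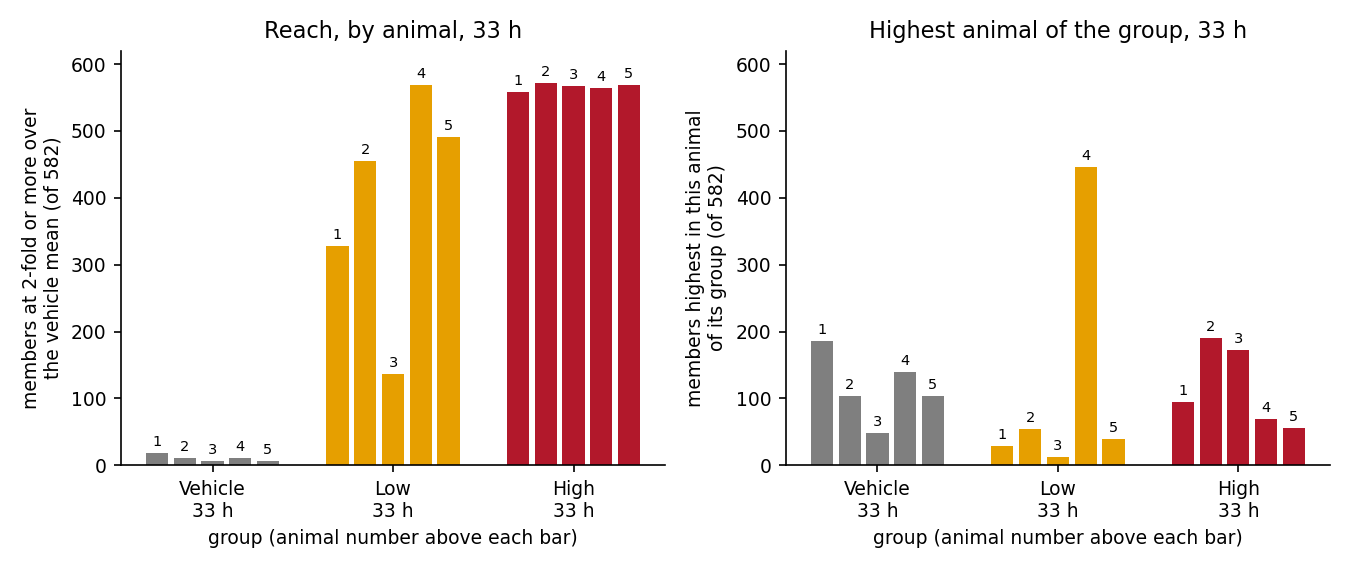
Left, members at 2-fold or more over the 33 h vehicle mean in each 33 h animal; right, members for which that animal is the highest of its group. Low dose animal 4 reaches 569 of 582 members and is the highest low dose animal for 446, while no high dose animal is the highest for more than 190.

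The low dose ratios depended in part on that animal. Without animal 4, 402 of the 582 members still had a low dose ratio of at least 2, and the median low dose ratio was 2.23. In 88 members all 5 low dose livers were at 2-fold or more over the vehicle mean, in 192 it was 4 livers, in 186 it was 3, in 98 it was 2 and in 18 a single liver. A single liver held over 50% of the summed low dose level for 54 members, and for 46 of these it was animal 4. The coefficient of variation of the members had a median of 35.7% in the low dose group and 22.5% in the high dose group at 33 h, against 22.2% and 21.7% over all tested transcripts. The low dose bound can be met through 1 high liver, so the wider low dose spread of the members is partly built in. Other measures moved with animal 4. Its median over all tested transcripts was 0.56 on the log2 scale and its TMM factor 1.23, both the highest of the low dose group, and animal 3 had the lowest, at 0.14 and 0.978. Relative to all tested transcripts the members stood at 1.31 in animal 4, 0.49 in animal 3 and 0.77 to 0.93 in the others, so the order at the ends was kept. The part of the general shift in the members' order was not tested.

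The remaining late rises of the high dose were also highest in animal 4. There were 502 transcripts that met every condition except the low dose one (low dose ratio under 2), so that the members were 53.7% of 1084 late high dose rises. The median log2 ratio of those 502 was 1.24 in low dose animal 4, against 0.05 to 0.67 in the other low dose animals and 1.38 to 2.20 in the high dose animals. Their high dose ratios were somewhat smaller, with a median of 3.59 against 4.16 for the members. Every high dose liver lay above every low dose liver for 243 of 493 tested transcripts of that set and for 106 of 568 members, where 11.4% of all tested transcripts did so. These figures follow from the bound that divides the sets.

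Among the members the high dose mean exceeded the low dose mean for 560 of 582, a count not made over all tested transcripts. On the log2 scale the low dose reached a median of 65.8% of the high dose rise, with quartiles of 56.4% and 76.5%. The 265 members with high dose ratios of 3 to 4 had a median share of 68.6%, and the 60 with ratios of at least 10 had 46.0%. The bounds alone require a share of at least 63.1% at a high dose ratio of 3 and of 30.1% at a ratio of 10, so the trend is partly built in. The median low dose ratio itself was 2.31 in the 265 and 4.03 in the 60.

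**Figure D4:**
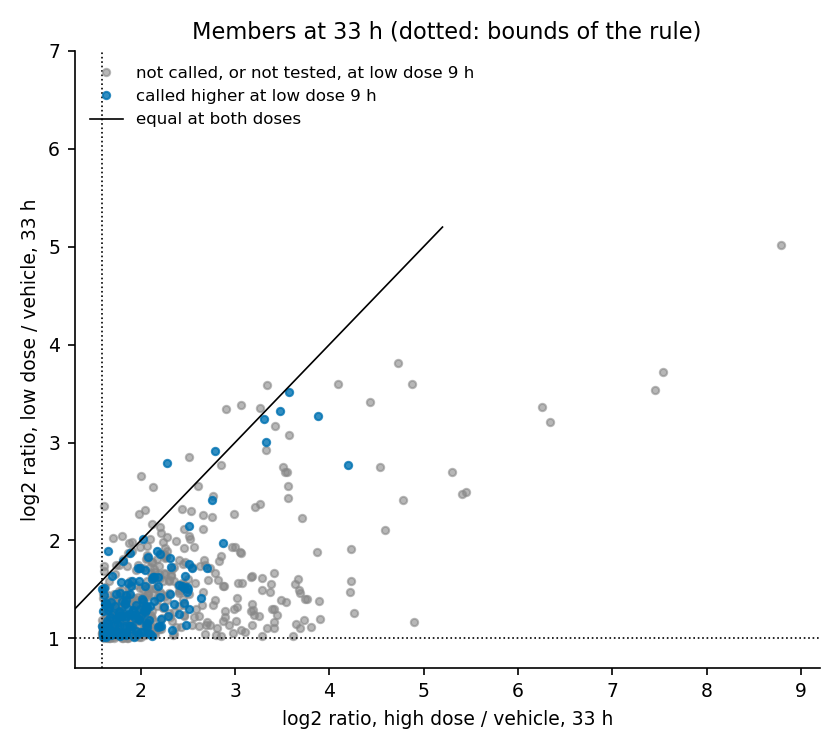
Log2 ratio to vehicle at 33 h for each member, low dose against high dose, with dotted lines at the bounds of 3 and 2 and a solid line where both are equal. Points above the solid line are the 22 members at least as high at the low dose, and blue points are members called higher at the low dose, 9 h.

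For 22 members the low dose mean was at least as high as the high dose mean. Low dose animals 1 to 5 were the highest of their group for 3, 8, 2, 7 and 2 of them, and 18 of the 22 remained so without animal 4. Their median ratio to vehicle was 4.89 with the low dose and 3.98 with the high dose. The largest departure among members with at least 5 TPM was that of a transcript of 2087 bases. At 33 h it measured 34.3, 14.9, 15.8, 25.8 and 22.7 TPM in vehicle livers, 164, 160, 187, 140 and 138 TPM at the low dose, and 131, 113, 72, 112 and 124 TPM at the high dose. All low dose livers lay above all high dose livers, the only one of the 22 for which this was so, and all treated livers lay above all vehicle livers. Neither that count nor the 22 was set beside a count over all tested transcripts.

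The 5 low dose livers at 9 h took no part in choosing the members, and many members were higher in them than in vehicle livers, and none lower, by the test. Of 568 members tested, 160 (28.2%) were called higher at the low dose, 9 h, where 13.5% of all tested transcripts were. None was called lower, where 11.2% of all tested transcripts were. At an unadjusted p under 0.05, 214 members were higher (18.4% of all tested transcripts) and none lower (16.7%). DESeq2 called 172 members higher (14.4% of all tested) and none lower (12.6%). Limma voom called 183 higher (15.3%) and none lower (13.6%). The median fitted log2 fold change was 0.38, with quartiles of 0.12 and 0.63, and was above 0 for 478 of 568 members (84.2%). Over all tested transcripts the median was 0.003, with quartiles of -0.26 and 0.35, and 50.3% lay above 0. The 9 h vehicle livers are also the divisor of the 9 h ratio in the rule, which the members' high dose livers had to match within its bounds.

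The same counts were made for sets chosen in part by the same conditions. Of 12251 tested transcripts with a high dose ratio at 9 h inside the same bounds, a vehicle mean under 50 TPM and a level above 0 in 1 of the 9 h groups compared, members included, 9.62% were called higher and 8.83% lower at the low dose, 9 h, with a median of 0.01. Of the 493 tested late rises under the low dose bound, 10.8% were called higher and 0.609% lower, with a median of 0.19. The log2 fold change was above 0 for 72.4% of those 493. These shares describe the sets, and no test was made between them.

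By animal the shift was present in each low dose liver at 9 h. The members' median log2 ratio to the vehicle mean was 0.61, 0.42, 0.39, 0.28 and 0.32 in low dose animals 1 to 5, and from -0.15 to 0.15 in the vehicle animals. All low dose livers lay above all vehicle livers on this measure. After subtraction of each library's median over all tested transcripts the ranges were 0.26 to 0.43 at the low dose and -0.08 to 0.10 in vehicle livers, again apart. For single members the groups overlapped more often, and every low dose liver lay above every vehicle liver for 147 of 568, where 12.8% of all tested transcripts did so. No member had every low dose liver below every vehicle liver, where 4.87% of all tested transcripts did.

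**Figure D5:**
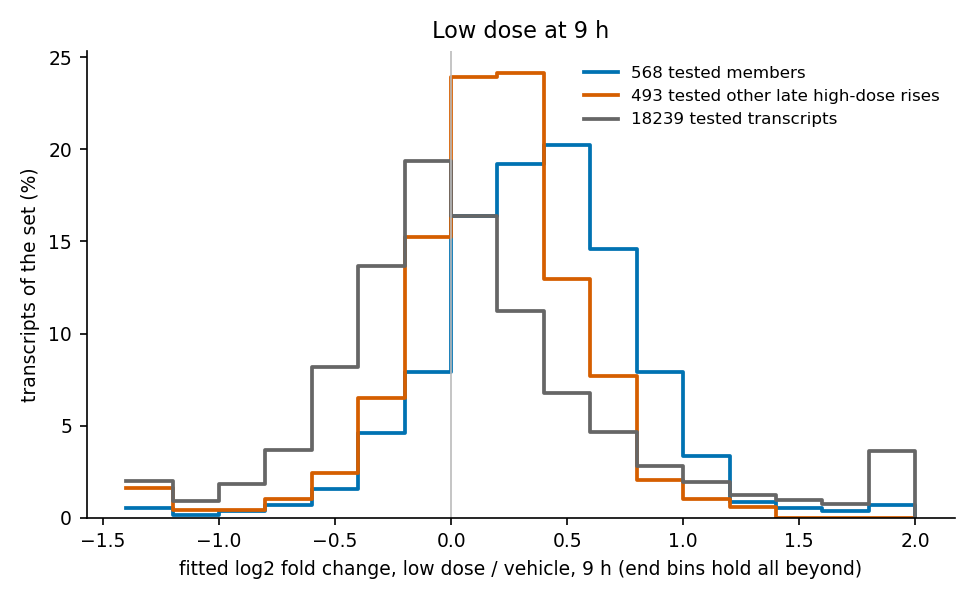
Share of each set by fitted log2 fold change, low dose over vehicle at 9 h, in bins 0.2 wide for the 568 tested members, the 493 other late high dose rises and all 18239 tested transcripts. The members' curve lies to the right, with a median of 0.38, against 0.19 for the other late rises and 0.003 for all tested transcripts.

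Most of these early changes were small. Of the 160 members called, 13 reached 2-fold, and the median log2 fold change was 0.62, over a range of 0.28 to 3.05. The largest of 3.05 was a single liver's value. That transcript, of 2103 bases, held 1.48, 27.4, 1.17, 1.13 and 1.46 TPM at the low dose, 9 h, against 0.767, 1.17, 0.664, 0.391 and 0.571 TPM in vehicle livers. Low dose animal 2 stood far above the other 4 there, and animals 3 and 4 lay inside the vehicle range. Among called members with at least 5 TPM and no overlap, the largest rise was that of a transcript of 1131 bases, with 16.6, 8.41, 11, 6.63 and 9.41 TPM at the low dose, 9 h, against 4.59, 4.29, 4.46, 3.10 and 4.76 TPM in vehicle livers. Its log2 fold change was 1.19 ± 0.36 (SE, edgeR adjusted p = 0.0166). Low dose livers averaged 10.4 ± 3.82 TPM of it at the earlier time and 9.84 ± 4.11 TPM at the later (SD, n = 5 each).

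The transcript of 2087 bases that was highest at the low dose at 33 h was among the 160. It measured 27.5, 21.5, 32.8, 22.9 and 42.2 TPM at the low dose, 9 h, against 16.1, 15.3, 14.8, 14.0 and 14.8 TPM in vehicle livers, with no overlap. Its log2 fold change there was 0.88 ± 0.21 (SE, edgeR adjusted p = 0.00298). At the high dose, 9 h, it measured 18.7, 25.6, 23.2, 23.5 and 19.3 TPM, also above every vehicle liver. That high dose ratio was 1.47, just inside the bound of 1.5. The third highest member came near the threshold, at 91.4, 85.8, 131, 67.1 and 72.7 TPM at the low dose, 9 h, against 38.8, 22.1, 44.2, 24.8 and 81.3 TPM in vehicle livers. Vehicle animal 5 lay inside the low dose range, and the change did not pass the test (log2 fold change 1.02 ± 0.38, SE, edgeR adjusted p = 0.0507).

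Members called at the low dose, 9 h, were the more abundant ones. Their vehicle mean at 9 h had a median of 6.62 TPM, against 1.57 TPM for the 408 tested members not called, and a median length of 2525 bases, against 2117.5 bases. Their 33 h rises were not larger, with a median high dose ratio of 3.8 against 4.31 and a median low dose ratio of 2.44 against 2.57. The median fitted log2 change at the low dose, 9 h, was 0.62 in the 160 and 0.23 in the 408. The high dose ratio at 9 h, which the rule bounds, had a median of 1.21 in the 160 and 0.990 in the 408.

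At 9 h the mean of most members was lower at the high dose than at the low dose, and the bound on the high dose favours this. The low dose mean at 9 h exceeded the high dose mean for 512 of 582 members (88.0%), against 75.5% of the 12251 transcripts inside the same bounds and 69.3% of all tested transcripts. By animal the members' median log2 ratio ran from -0.12 to 0.20 at the high dose and from 0.28 to 0.61 at the low dose, 9 h. Median levels of all tested transcripts were also lower at the high dose, 9 h, from -0.17 to -0.01, against -0.02 to 0.18 at the low dose. With each library's median subtracted, the members stood at 0.05 to 0.27 at the high dose and 0.26 to 0.43 at the low dose. Those ranges overlapped slightly, and vehicle livers ran from -0.08 to 0.10. No test was made, since the rule used the high dose livers.

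The members' vehicle levels were lower at 33 h than at 9 h, which the rule favours. The vehicle mean at 33 h is the divisor of both 33 h ratios, and it was below the vehicle mean at 9 h for 488 of 582 members. That count was not made over all tested transcripts. Medians over the members were 1.70 TPM at 33 h and 2.38 TPM at 9 h, while over all tested transcripts they were 3.69 and 3.94 TPM. In 5 members all 33 h vehicle livers were listed at 0, and in 1 of them the 9 h vehicle livers were at 0 too.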

How the data were processed

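Poly-A libraries of liver RNA were made with a stranded kit and read as paired ends, per the labels' protocols. The authors used kallisto 0.42.4, per the submitters' processing notes. The transcript set and build were not given in the sources used here. As deposited, a table lists transcript length, effective length, estimated count and TPM, per the file headers. Estimated counts are not normalized, and TPM is scaled to a fixed total per library. Reads shared by similar transcripts are divided by the estimate, so single transcripts, and transcripts of 1 gene, are not independent.

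Members were found on the TPM as deposited by the authors. The members, lists and tests were chosen with earlier results of these data known. Estimated counts, as deposited, were rounded and fitted with edgeR 4.0.16 (R 4.3.3): filterByExpr by group (minimum count 10, minimum total 15), TMM scaling, robust quasi-likelihood with all 30 libraries, Benjamini-Hochberg adjustment over 18239 transcripts. DESeq2 1.42.0 and limma voom 3.58.1 were alternatives. The fit was also run on counts simulated from its own spread estimates without a general shift between groups, and no result rests on that run. Each standard error was obtained by dividing the fold change (log2) by the square root of F. The 60 pairs of libraries within groups differed by more than counting noise (chi-square per degree of freedom 23.6 to 190). Replicates were taken as separate animals, as the design describes 30 animals. Labels give no batch or replicate number, so animal numbers only name libraries.

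Named members were, by rule, that of the highest high dose mean at 33 h, then the largest high dose ratio among the others with at least 5 TPM, and up to 2 called lower at the low dose, 9 h, of which there were none. Members shown without identifier were chosen after their values were seen. Planned lists of marker and pathway genes need gene names and were not used here.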

Additional observations from a re-analysis of the deposited data

Results flagged for a closer look

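A gap of 1 library from its group, measured against the whole range of the 5 values, passed the 95% critical value of 0.71 in 6 of 24 groups of values examined. Chance passes about 1 in 20 for normally distributed values, which was not checked for TPM. The rules that chose or named the members used the values of each group that passed except the low dose at 9 h, so the number is a description. ENSCPOT00000014732.3 accounted for 4 of the 6. Its highest library stood apart at the low dose, 9 h (84.7 TPM, animal 1), the high dose, 9 h (31.8 TPM, animal 3), in vehicle livers at 9 h (33.1 TPM, animal 5) and at the low dose, 33 h (370 TPM, animal 4). ENSCPOT00000036568.1 stood apart at the low dose, 33 h, at 6.62 TPM in animal 4. The members' summed share of TPM stood apart in high dose animal 5 at 33 h, at 1.13%, against 1.51% to 1.64% in the other high dose animals and 1.17% in low dose animal 4.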

How the results depend on the processing

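The number of transcripts meeting the rule was 159 with TPM divided by TMM factors, 260 with 1 TPM added, 480 with CPM, 494 with group medians and 627 with 0.01 TPM added, against 582. Leaving out 1 animal gave 409 to 680, the lowest without low dose animal 4 and the highest without low dose animal 3, both at 33 h. The median high dose ratio was 2.77 with TMM factors and 4.06 to 4.30 under the other settings; the low dose ratio was 2.03 with TMM factors and 2.23 to 2.73 otherwise. At the low dose, 9 h, members called higher numbered 148 to 184 over the alternative fits (10.1% to 17.2% of all tested transcripts) and 131 to 159 with 1 animal left out (11.8% to 12.4%), all within 1.5 times of 160. Scaling by library totals moved the median log2 change there to 0.13 for all tested transcripts and to 0.51 for the members, 184 of which were called higher (17.2% of all tested). Members called lower numbered 0 (5.42% to 13.6% of all tested), except 1 with the compared groups fitted alone (12.8%) and 0 to 1 with 1 animal left out (1 without low dose animal 1, where 8.94% of all tested were). ENSCPOT00000036568.1 had no result with the compared groups fitted alone and passed the test under none of the other settings. With 1 animal left out its log2 fold change ranged from -1.58 to 0.81. It changed sign with limma voom (0.50) and without vehicle animal 5, 9 h (0.81). The cause was not tested. No paired analysis was made, since each library was taken as a separate animal. How depth limits the low dose test for scarce members was not tested.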
